A study of Danio rerio with 6 samples.

Results

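The genes examined encode the machinery that forms the 3′ ends of RNA polymerase II transcripts in zebrafish: the subunits of the Integrator complex and the factors of messenger RNA cleavage and polyadenylation. They were chosen by gene symbol, with earlier results of these data known. Counts of them set beside shares of all genes therefore describe the list and do not test it. The Ensembl gene IDs of 33 of the 35 listed symbols had a row among the 34965 genes of the count table. All 14 listed Integrator subunits were found, as were 19 of the 21 cleavage and polyadenylation factors, and all 33 genes passed the filter on low counts. *cpsf7* and *ssu72* were not analysed here.

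Integrator travels with RNA polymerase II and cuts the nascent transcript. It makes the 3′ ends of the spliceosomal small nuclear RNAs and stops many polymerases soon after they start. Messenger RNA ends are instead made by the cleavage and polyadenylation machinery, which reads the polyadenylation signal, cuts behind it and adds the poly(A) tail. The roles given below come mostly from human and fly proteins.

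Prpf31 is a protein of the tri-snRNP, the particle that brings small nuclear RNAs to the assembling spliceosome, and the study asked how its loss changes gene expression in the embryo. RNA was measured by poly(A)-selected RNA-seq in 3 libraries of *prpf31*-/- mutants and 3 libraries of wild type siblings, all of strain AB at 36 hpf (hours post fertilization). Each library came from a pool of 35 dissected heads that shared a genotype, and the pools were described as independent biological replicates. The mutants belong to a stable CRISPR/Cas9 line, the controls are siblings of the mutants, and p-values measure the spread between these pools.

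Library totals ran between 58706617 and 66381302 counts. Levels of a gene are given as CPM, counts scaled to library size and by TMM (a correction for differences in library composition), and folds are log2 fold changes of mutants over siblings from edgeR's quasi-likelihood test. A gene was called when its Benjamini-Hochberg adjusted p, taken over all 24277 genes tested, was 0.05 or lower. Head and eye neural markers such as *elavl3* and *sox2* were present in every library (7 of 10 listed markers tested, none called). Of all 24277 genes, 3.83% were called lower and 3.96% higher. The 5 posterior body genes tested summed to 48.4 CPM in mutant 1 and to 17.9 to 24.5 CPM in the other libraries. The library of mutant 1 stood apart from the other 5. Its scaling factor was 0.816, against 1.02 to 1.06 in the others, and 14.5% of its counts fell on its 10 top genes, where the others had 8.14% to 9.54%. The summed CPM of 3 muscle markers was 49102 in mutant 1, against 17464 to 21485 in the others. Fits without this library are therefore given for some single genes and for both classes as a whole. A later figure shows the log2 fold changes with and without it for all tested genes of both classes. A gene described without such a value can still depend on mutant 1.

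The mutated gene was lower in the mutants. *prpf31* (ENSDARG00000095904) stood at 22.4, 24.5 and 27.3 CPM in mutants and at 38.7, 37.9 and 37.6 CPM in siblings. All mutants lay below all siblings, a log2 fold change of -0.62 (SE 0.11, edgeR adjusted p = 0.018). The adjusted p was 0.0776, 0.0898 and 0.0883 without sibling 1, 2 and 3, and 0.0629 without mutant 2.

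Most Integrator transcripts had lower values in the mutants, and 4 of them passed the test. Of the 14 subunits, 12 had a log2 fold change below 0, 4 were called lower (*ints2*, *ints8*, *ints10* and *ints11*) and 0 were called higher. Over all genes tested, 3.83% were called lower and 3.96% higher. The median log2 fold change of the subunits was -0.40, with a range of -1.22 to 0.20, beside a median of 0.019 over all genes tested. At an unadjusted p under 0.05, 8 subunits were lower and 0 higher, beside 12.5% of all genes tested lower and 11.8% higher. In bulk tissue, fewer cells that express a gene and less of its RNA per cell cannot be told apart. All mutants lay below all siblings for 11 of the 14 subunits, against 17.4% of all genes tested, and 0 subunits lay above in this way, against 14.9%. The exceptions were *ints4*, *ints7* and *ints12*, whose groups overlapped. Because the list was chosen with earlier results of these data known, these counts are a description.

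**Figure D1:**
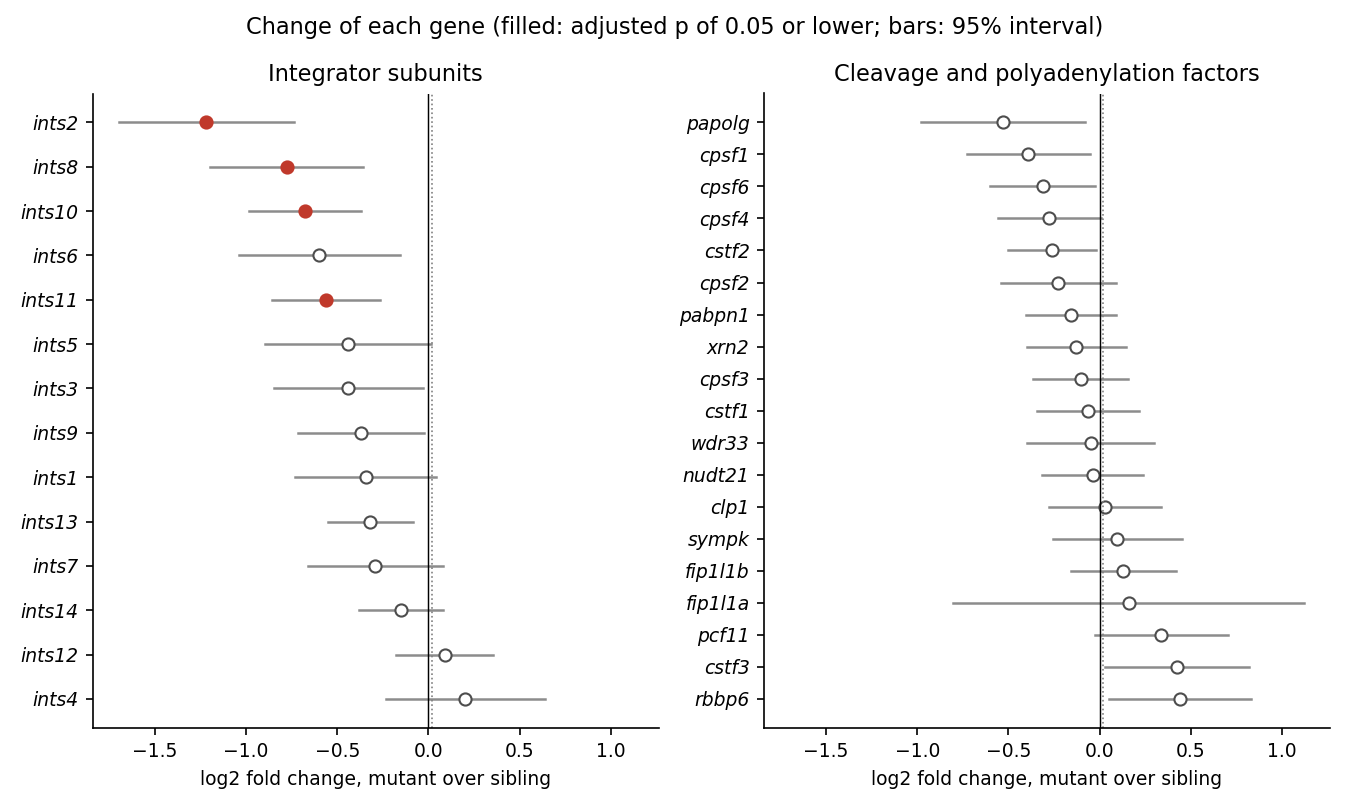
Log2 fold change of each gene, mutant over sibling (points), with its 95% interval from edgeR (bars), for 14 Integrator subunits on the left and 19 cleavage and polyadenylation factors on the right. Filled points were called at an adjusted p of 0.05 or lower, and the dotted line is the median over all genes tested. The 4 filled points are Integrator subunits and lie between -1.22 and -0.56, and the intervals of *rbbp6* and *cstf3* lie above 0 although neither gene was called.

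The backbone of Integrator, on which the other modules assemble, is formed by *ints1*, *ints2*, *ints7* and *ints12*. *ints2* (ENSDARG00000069085) showed the largest difference of all the subunits. It was present at 12.2, 22.0 and 15.3 CPM in mutants and at 36.7, 40.7 and 37.9 CPM in siblings. The highest mutant was well below the lowest sibling. This was a log2 fold change of -1.22 (SE 0.21, edgeR adjusted p = 0.0154), and *ints2* was the only subunit that also changed by at least 2-fold. Over all genes tested, 1.22% were called lower with a change of that size and 2.12% were called higher. The adjusted p was 0.058, 0.0785 and 0.0738 without sibling 1, 2 and 3, and 0.0684 without mutant 3, and the log2 fold change ranged from -1.48 to -1.05 over the 6 fits that left out a library.

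The rest of the backbone was not called. *ints1*, the largest scaffold subunit, had a log2 fold change of -0.34 (adjusted p = 0.253), with means of 49.8 ± 10.3 CPM in mutants and 63.3 ± 4.72 CPM in siblings (SD, n = 3 each). *ints7* had a log2 fold change of -0.29 (adjusted p = 0.309). *ints12*, a small subunit with a PHD finger, stood at 24.2 ± 2.49 CPM in mutants and 22.8 ± 0.651 CPM in siblings (SD, n = 3 each). Its log2 fold change of 0.09 (adjusted p = 0.682) turned below 0 when library sizes alone were used for scaling. Within the backbone the 95% interval of *ints2* (-1.70 to -0.74) did not meet that of *ints12* (-0.18 to 0.35). These genes were picked as the lowest and highest of the backbone, and the difference between them was not tested.

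The endonuclease module holds the cutting subunit *ints11*, its inactive partner *ints9*, and *ints4*, which holds the pair together. *ints11* was measured at 20.3, 26.1 and 25.0 CPM in mutants and at 33.0, 35.3 and 36.9 CPM in siblings. Every mutant was below every sibling, with mutant 1 lowest, and the log2 fold change was -0.56 (SE 0.13, edgeR adjusted p = 0.0404). That p was 0.097, 0.148 and 0.158 without sibling 1, 2 and 3, and 0.0678 and 0.101 without mutant 2 and 3.

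*ints9* had means of 12.3 ± 1.92 CPM in mutants and 15.9 ± 1.23 CPM in siblings (SD, n = 3 each), a log2 fold change of -0.37 that was not called (adjusted p = 0.179). *ints4* had the highest log2 fold change among the subunits. Its values were 16.4, 26.3 and 26.0 CPM in mutants and 18.9, 21.3 and 19.6 CPM in siblings. Mutants 2 and 3 lay above all siblings and mutant 1 below all of them, and the log2 fold change of 0.20 (SE 0.19) was not called (adjusted p = 0.557). Without mutant 1 the log2 fold change of *ints4* was 0.38 and it was called higher (adjusted p = 0.0305). *ints4* overlaps *aamdc* in RefSeq. The paper names the intersection-strict mode of HTSeq, but the strand setting was not given, so how reads of the overlap were counted is not known.

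The phosphatase module and the shoulder next to it connect Integrator to protein phosphatase PP2A, which acts on the polymerase and its pausing factors. *ints8*, which helps to dock the phosphatase, was at 17.3, 24.2 and 27.9 CPM in mutants and at 36.0, 40.7 and 42.1 CPM in siblings. The groups did not overlap, and mutant 1 was again the lowest, with a log2 fold change of -0.78 (SE 0.18, edgeR adjusted p = 0.0426). That p was 0.0961, 0.15 and 0.155 without sibling 1, 2 and 3, and 0.0951 and 0.0557 without mutant 2 and 3. *ints8* overlaps a long noncoding RNA gene in RefSeq.

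*ints6*, a subunit of the phosphatase module, had means of 18.6 ± 4.41 CPM in mutants and 28.2 ± 3.1 CPM in siblings (SD, n = 3 each). Its log2 fold change was -0.60 (SE 0.19) and was not called (adjusted p = 0.102). With the replicate number as a block it was called lower (adjusted p = 0.0281), as 5 subunits then were and 0 were called higher, while 6.61% of all genes were called lower and 6.09% higher. *ints3*, which is shared with the SOSS complex of DNA repair, and *ints5* both had log2 fold changes of -0.44 (adjusted p = 0.177 for *ints3* and 0.219 for *ints5*). In all 4 genes of this group every mutant lay below every sibling, as in 17.4% of all genes tested. Only *ints8* of the 4 was called in the main fit.

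The arm is the peripheral module of *ints10*, *ints13* and *ints14*. *ints10* was at 16.6, 22.2 and 21.1 CPM in mutants and at 32.3, 32.7 and 30.8 CPM in siblings. The siblings lay close together and all mutants were below them, at a log2 fold change of -0.68 (SE 0.13, edgeR adjusted p = 0.0254). That p was 0.0913, 0.111 and 0.0998 without sibling 1, 2 and 3, and 0.0762 without mutant 3.

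*ints13* had a log2 fold change of -0.32 (adjusted p = 0.102). It differed from most subunits in that mutant 1 was not the lowest mutant, with 25.4, 25.8 and 23.6 CPM in mutants and 32.0, 31.5 and 29.6 CPM in siblings. Without mutant 1 it was called lower (adjusted p = 0.0416). *ints14* had the smallest difference of the arm, a log2 fold change of -0.15 (adjusted p = 0.399), and it overlaps *hacd3* in RefSeq.

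**Figure D2:**
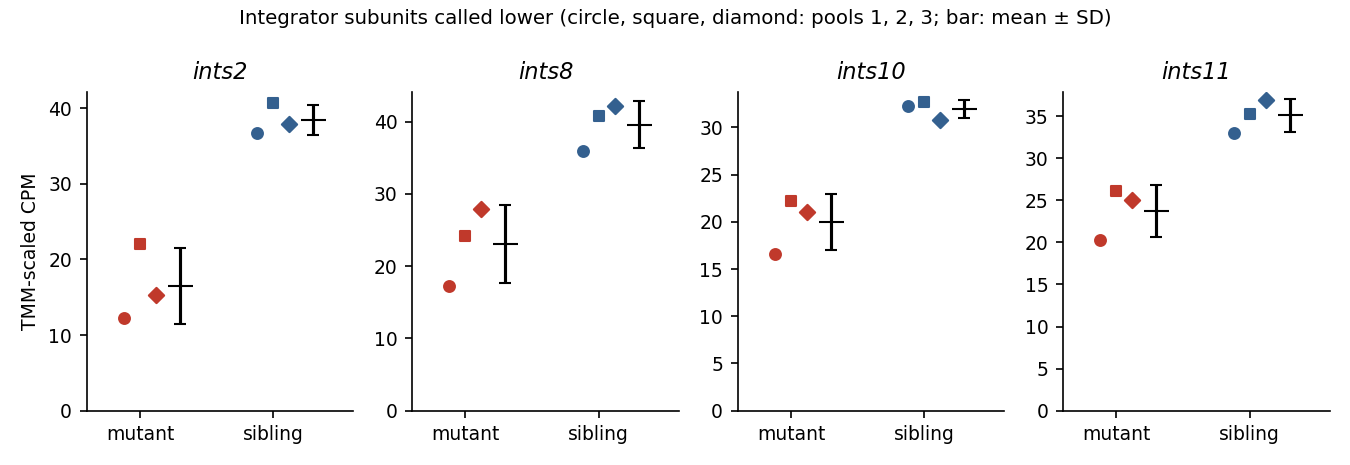
TMM-scaled CPM in each library of the 4 Integrator subunits called lower, for mutants (red, left) and siblings (blue, right). Circles, squares and diamonds are pools 1, 2 and 3, and the bar beside them is the mean ± SD of 3 libraries. In all 4 panels the groups do not overlap and mutant 1 is the lowest of the mutants.

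The differences of the cleavage and polyadenylation factors lay on both sides of 0. Of 19 factors, 12 had a log2 fold change below 0 and 7 above, with a median of -0.06 and a range of -0.53 to 0.44. edgeR called 0 factors in either direction, beside 3.83% of all genes tested called lower and 3.96% higher. DESeq2 also called 0 factors, where it called 6.26% of all genes lower and 6.59% higher. At an unadjusted p under 0.05, 4 were lower and 2 higher, where 12.5% of all genes were lower and 11.8% higher. All mutants lay below all siblings for 6 of the 19 factors and above for 0, against 17.4% and 14.9% of all genes tested.

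Recognition of the polyadenylation signal rests on *cpsf1*, *cpsf4*, *wdr33* and the Fip1 proteins. *cpsf1*, the scaffold of this group, had means of 67.0 ± 10.7 CPM in mutants and 87.8 ± 7.98 CPM in siblings (SD, n = 3 each), with non-overlapping groups and a log2 fold change of -0.39 (adjusted p = 0.15). *cpsf4* and *wdr33* bind the signal itself, and their log2 fold changes were -0.28 (adjusted p = 0.216) for *cpsf4* and -0.05 (adjusted p = 0.874) for *wdr33*. The *wdr33* difference was above 0 (log2 fold change 0.08) without mutant 1.

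Zebrafish have a pair of Fip1 genes, whose products bring in the poly(A) polymerase, and in the deposited counts they were expressed very unequally. *fip1l1b* was at 97.2, 118 and 102 CPM in mutants and at 105, 94.9 and 89.4 CPM in siblings. The groups overlapped (log2 fold change 0.13, adjusted p = 0.567). *fip1l1a* was at 0.465, 1.27 and 0.819 CPM in mutants and at 0.921, 0.748 and 0.628 CPM in siblings, which rests on 25 to 86 counts per library. Its groups overlapped as well, and the 95% interval of its log2 fold change ran from -0.80 to 1.12, the widest of the 33 genes. Per length, *fip1l1b* averaged 31.9 FPKM in mutants and 31.7 FPKM in siblings, against 0.548 FPKM in mutants and 0.52 FPKM in siblings for *fip1l1a*. How reads shared by the copies were counted was not given. The paper's list of differentially expressed genes gives values for *fip1l1a* unlike these counts, and the difference was not examined.

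Among the genes for cleavage itself, *cpsf3* encodes the endonuclease, *cpsf2* its inactive partner, *sympk* a scaffold, and *rbbp6* a factor that activates the cut. *rbbp6* had the highest log2 fold change of the class. It was measured at 115, 151 and 167 CPM in mutants and at 123, 97.1 and 99.5 CPM in siblings. Mutants 2 and 3 were above all siblings, while mutant 1 lay below sibling 1. The log2 fold change of 0.44 (SE 0.17) was not called (adjusted p = 0.161). The log2 fold changes of *cpsf2*, *cpsf3* and *sympk* were -0.23, -0.10 and 0.10, and none was called.

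CstF binds downstream of the cut site. Its scaffold subunit *cstf3* had means of 175 ± 38.3 CPM in mutants and 130 ± 2.48 CPM in siblings (SD, n = 3 each). Its log2 fold change of 0.42 was not called (adjusted p = 0.179), with values of 131, 196 and 198 CPM in mutants beside 127, 132 and 131 CPM in siblings. Only mutants 2 and 3 stood above the siblings. The RNA-binding subunit *cstf2* lay lower in all mutants, with a log2 fold change of -0.26 (adjusted p = 0.179), and *cstf1* had one of -0.06 (adjusted p = 0.789).

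*nudt21* and *cpsf6*, which bind upstream of the cut and influence which polyadenylation site is used, had log2 fold changes of -0.04 (adjusted p = 0.882) for *nudt21* and -0.31 (adjusted p = 0.173) for *cpsf6*. *pcf11*, which links cleavage to release of the polymerase, had a log2 fold change of 0.34 (adjusted p = 0.238), and its partner *clp1*, an RNA kinase, had one of 0.03 (adjusted p = 0.917). *pcf11* overlaps *ddias* in RefSeq.

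The last step makes the tail and ends transcription. *papolg*, a nuclear poly(A) polymerase, had the lowest log2 fold change of the class. It was at 60.4, 99.1 and 99.6 CPM in mutants and at 126, 127 and 121 CPM in siblings. All mutants lay below the siblings, with mutant 1 far below the other mutants. The log2 fold change was -0.53 (SE 0.19) and was not called (adjusted p = 0.147), and *papolg* overlaps *pdlim1* in RefSeq. *pabpn1*, which coats the new tail, and *xrn2*, the exonuclease that degrades the downstream RNA, had log2 fold changes of -0.16 (adjusted p = 0.414) for *pabpn1* and -0.13 (adjusted p = 0.548) for *xrn2*.

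The classes were next compared within each library, as the median over genes of log2(CPM over the sibling mean). For Integrator this median was -0.76, -0.21 and -0.34 in mutants 1, 2 and 3, and -0.08, 0.06 and -0.01 in siblings 1, 2 and 3. For the cleavage and polyadenylation factors it was -0.28, 0.05 and 0.00448 in mutants and 0.02, 0.02 and -0.04 in siblings. The Integrator median minus that of the other class was -0.48, -0.26 and -0.35 in mutants and -0.10, 0.04 and 0.03 in siblings. Relative to the sibling means, Integrator thus stood below the cleavage and polyadenylation factors in each mutant. The sibling values lie near 0 because each gene was divided by its own sibling mean, so they are not a separate comparison. This is a description of the chosen genes and was not tested as a class.

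**Figure D3:**
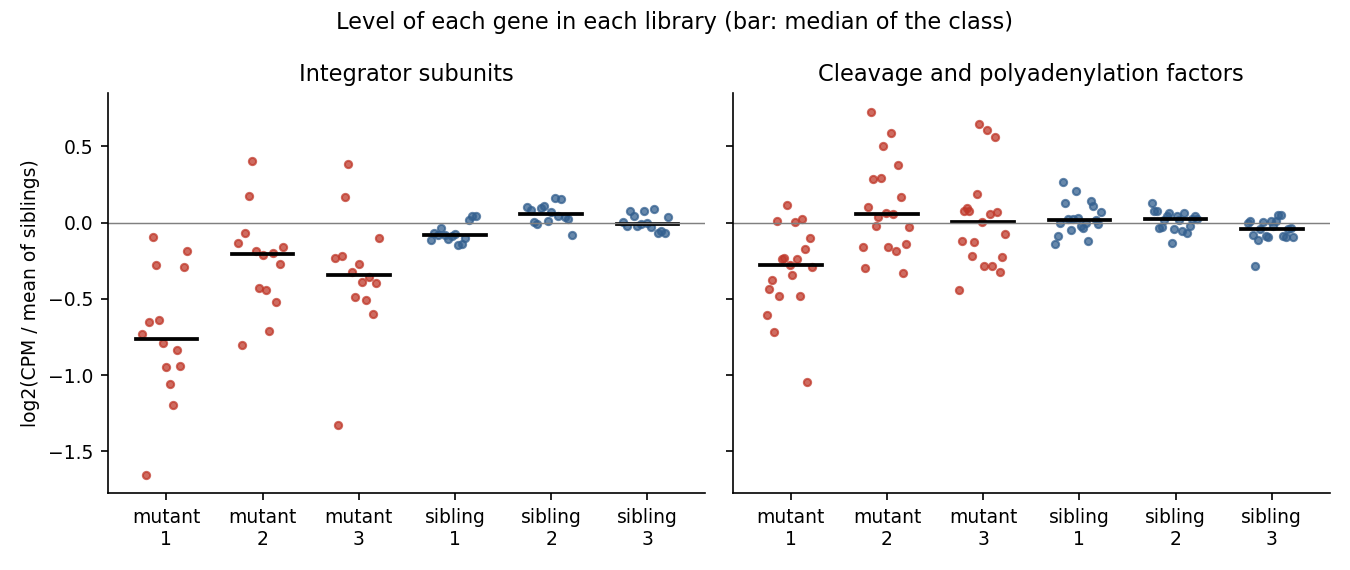
Log2 of each gene's CPM over its sibling mean in every library, for 14 Integrator subunits (left) and 19 cleavage and polyadenylation factors (right). Points are genes, red in mutants and blue in siblings, and black bars are medians. The Integrator median is below 0 in all 3 mutants, lowest in mutant 1 (-0.76), while that of the other class is below 0 among mutants only in mutant 1 (-0.28).

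Both classes were lowest in mutant 1. It was the lowest mutant for 13 of the 14 Integrator subunits and for 18 of the 19 other factors, against 44.8% of all genes tested. The median log2 ratio of mutant 1 to the mean of mutants 2 and 3 was -0.53 for the subunits and -0.31 for the other factors. It was 0.07, -0.03 and -0.13 over 5609 short, 6714 middle and 7161 long genes. Median lengths were 2790 bases for the subunits, 2321 for the other factors and 1781 over all genes tested. The part of gene length in these values was not tested. When mutant 1 was left out, 6 subunits were called lower (*ints2*, *ints6*, *ints8*, *ints10*, *ints11* and *ints13*) and 1 higher (*ints4*), with 8.17% of all genes called lower and 8.22% higher. The median log2 fold change of the subunits was then -0.27, and 12 remained below 0. Among the cleavage and polyadenylation factors, 1 was then called lower and 3 higher. *papolg* had a log2 fold change of -0.34 (adjusted p = 0.0195). *cstf3* had one of 0.59 (adjusted p = 0.00206), *rbbp6* 0.57 (adjusted p = 0.0171) and *pcf11* 0.46 (adjusted p = 0.0214). The median of this class was then 0.02, so its sign turned. In that fit *ints2* still had the lowest value of all 33 genes, at -1.05.

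**Figure D4:**
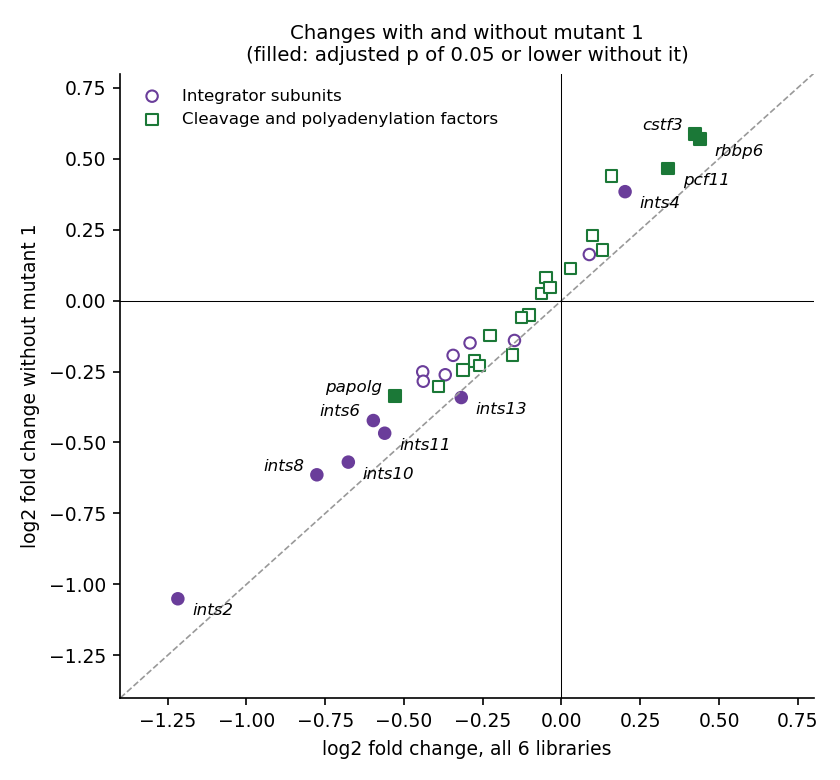
Log2 fold change of the 33 genes with all 6 libraries (horizontal) and without mutant 1 (vertical). Circles are Integrator subunits and squares are cleavage and polyadenylation factors, filled where the adjusted p was 0.05 or lower without mutant 1, and the dashed line marks equal values. Of the filled points, 7 lie below 0 on the vertical axis, led by *ints2* at -1.05, and 4 lie above 0.

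Sums of cell markers went in both directions. The 3 muscle and 5 posterior body markers all had log2 fold changes above 0, and none was called. Both of these sums were highest in mutant 1, and in mutants 2 and 3 neither lay above the siblings. The muscle sums were 18261 and 18103 CPM in mutants 2 and 3, beside 17464 to 21485 CPM in siblings. For the posterior markers they were 17.9 and 22.2 CPM, beside 21.9 to 24.5 CPM in siblings. Of 8 markers of dividing cells, all were detected in every library and 2 were called lower (*mcm5* and *top2a*), beside 3.83% of all genes tested. The summed CPM of the 8 markers was 1550 to 2114 in mutants and 2355 to 2501 in siblings, and mutant 1 was the lowest. *ccnb1*, a mitotic cyclin of that list, ran the other way in mutants 2 and 3, with 107, 170 and 172 CPM in mutants and 123, 117 and 127 CPM in siblings. The 7 head and eye neural markers summed to 275 to 657 CPM in mutants and 675 to 741 CPM in siblings, and the 4 lens markers to 71.1 to 410 CPM in mutants and 522 to 655 CPM in siblings, again with mutant 1 lowest. All 4 lens markers had log2 fold changes below 0, and the lens crystallin *cryaa* was called lower (log2 fold change -2.07, adjusted p = 0.0334). Of the 7 neural markers, 6 had log2 fold changes below 0 and 1, the eye field gene *rx1*, had one above 0 (0.44). The lowest were *atoh7* (-1.95, edgeR adjusted p = 0.0949) and *rx2* (-1.36, edgeR adjusted p = 0.105), neither of them called. In both, all mutants lay below all siblings, as in 17.4% of all genes tested. *rx1* was at 5.68, 32.6 and 25.5 CPM in mutants and at 15.7, 16.2 and 15.1 CPM in siblings. The 7 macrophage gene rows summed to 61.8 to 70.6 CPM in mutants and 73.2 to 86.5 CPM in siblings. The 3 erythrocyte markers summed to 226 to 465 CPM in mutants and 406 to 669 CPM in siblings, and the 3 vessel markers to 94.3 to 104 CPM in mutants and 83.6 to 94.7 CPM in siblings. No macrophage, erythrocyte or vessel gene was called, where 3.83% of all genes tested were called lower and 3.96% higher. The part of these cell types in the Integrator values was not tested.

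Levels between genes were compared per length, as FPKM (fragments scaled to gene length and library total). Integrator subunits were the less abundant class. The median of the subunits' mean levels was 7.50 FPKM in mutants and 11.7 FPKM in siblings, and that of the other class was 33.5 FPKM in mutants and 37.9 FPKM in siblings. Subunit means spanned 3.30 to 18.3 FPKM in mutants and 4.79 to 18.6 FPKM in siblings. *ints5* was the lowest subunit in both groups and *ints12* the highest. *ints2* averaged 7.37 ± 2.86 FPKM in mutants and 18.4 ± 1.34 FPKM in siblings (SD, n = 3 each). It ranked next to *ints12* in siblings and near the middle of the subunits in mutants. Among the other factors *pabpn1* was highest, at 127 FPKM in mutants and 156 FPKM in siblings, and *clp1* stood at 3.39 FPKM in mutants and 3.59 FPKM in siblings. FPKM carries no composition scaling, so mutant 1 lies lower relative to the other libraries on this scale than as CPM.

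**Figure D5:**
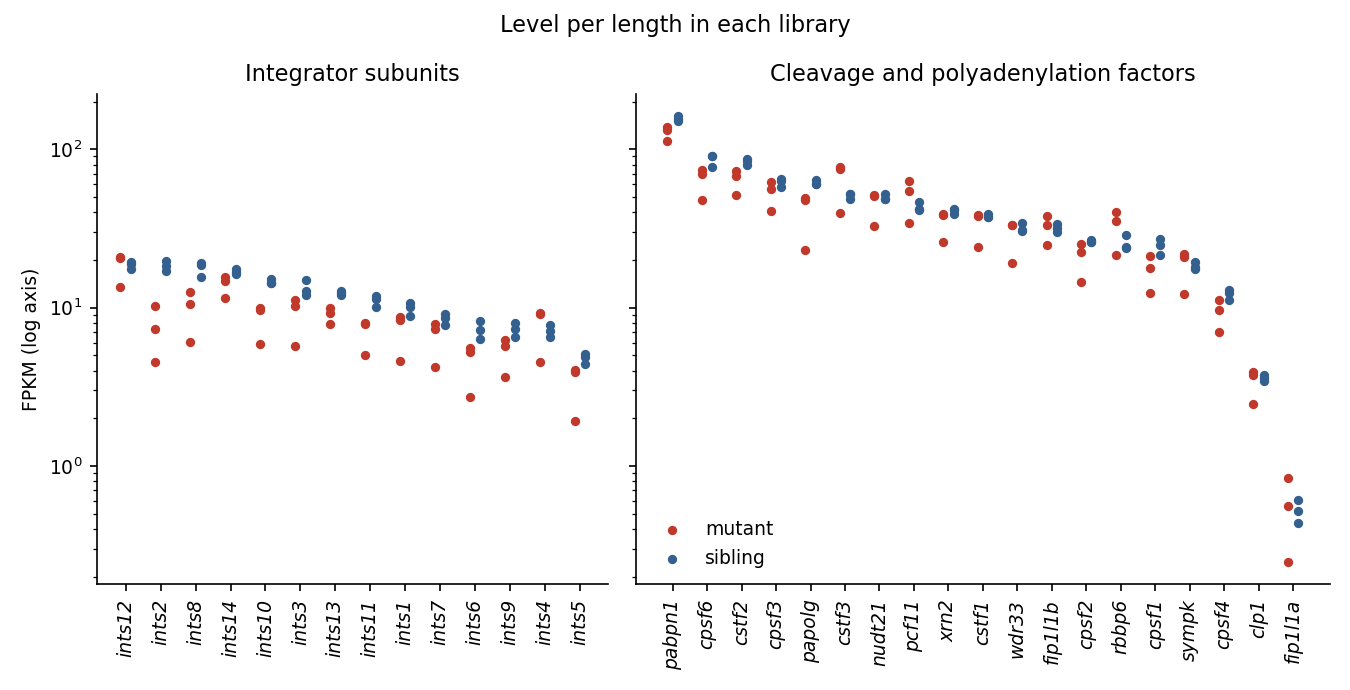
FPKM of each gene in every library on a log axis, for Integrator subunits (left) and cleavage and polyadenylation factors (right), ordered by the sibling mean, with mutants in red left of siblings in blue. Subunit means lie between 4.79 and 18.6 FPKM in siblings, and those of the other class between 0.52 (*fip1l1a*) and 156 FPKM (*pabpn1*).

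Partners of Integrator outside the 14 subunits were then examined: the SOSS single-strand DNA binding proteins, PP2A subunits and further subunits, with 9 gene rows tested from 12 listed symbols. Of these, 2 were called lower, and the median log2 fold change was -0.19. Over all genes tested, 3.83% were called lower and 3.96% higher. *nabp1b* also had an adjusted p below 0.05, but it is given below as a description only. *ints6l*, a second copy related to *ints6*, was at 11.6, 13.4 and 11.5 CPM in mutants and at 25.7, 26.5 and 22.9 CPM in siblings. All mutants were far below all siblings, and mutant 1 did not stand apart. The log2 fold change was -1.04 (SE 0.12, edgeR adjusted p = 0.00398), and it was called without each library in turn.

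*inip*, a small subunit of SOSS, was at 10.5, 11.1 and 11.7 CPM in mutants and at 19.9, 19.7 and 19.0 CPM in siblings. The groups were tight and apart, with a log2 fold change of -0.81 (SE 0.11, edgeR adjusted p = 0.00699). The adjusted p was 0.0515 without sibling 2. *nabp1b*, a single-strand DNA binding protein of SOSS, had 15, 22 and 29 counts in mutants and 0, 1 and 1 in siblings. It passed the filter on low counts only through the mutants, where it was high, and was absent from the fit with at least 10 counts in every library. Its values are therefore a description. The ratio of scaled counts was 33.9, with a 95% exact binomial interval of 9.03 to 286 that covers counting error only. Its adjusted p is not read as support, because the gene entered the filtered test through its high group. That p was above 0.05 without sibling 2 or sibling 3.

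Replication-dependent histone messenger RNAs end without a tail and use their own 3′ end factors, of which 6 gene rows were tested from 7 listed symbols. Of these, 1 was called higher and 0 lower, beside 3.96% and 3.83% of all genes tested. With the replicate block or with DESeq2 2 were called higher, beside 6.09% of all genes with the block and 6.59% with DESeq2. *eri1*, an exonuclease that trims the histone stem-loop end, was at 16.7, 17.4 and 17.9 CPM in mutants and at 9.98, 9.05 and 11.3 CPM in siblings. All mutants lay above all siblings, with a log2 fold change of 0.78 (SE 0.13, edgeR adjusted p = 0.014). The adjusted p was 0.0645 and 0.0793 without sibling 1 and 2, and 0.059 without mutant 3. With library sizes alone it was 0.084. *casp8ap2*, which works at the histone locus, had a log2 fold change of 0.63 that was not called (adjusted p = 0.0701). It was called higher with the replicate block (adjusted p = 0.041) and with DESeq2 (adjusted p = 0.0187). Without mutant 1, *casp8ap2* (0.79, adjusted p = 0.00409) and *npat* (0.62, adjusted p = 0.0046), an activator of histone genes, were called higher beside *eri1*. In that fit 8.22% of all genes were called higher. The median log2 fold change of these rows was 0.29.

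Factors of polymerase pausing and elongation (NELF, DSIF, P-TEFb and PAF) share their polymerase with Integrator. edgeR called 0 of 14 in either direction, beside 3.83% of all genes tested called lower and 3.96% higher. At an unadjusted p under 0.05, 1 was lower and 3 higher (12.5% and 11.8% of all genes). DESeq2 called *rtf1*, an elongation factor linked to PAF, lower (adjusted p = 0.0207), where it called 6.26% of all genes lower and 6.59% higher. The largest difference was that of *supt6h*, an elongation factor and histone chaperone, with a log2 fold change of 0.41 (adjusted p = 0.151). Without mutant 1 its value was 0.53 (adjusted p = 0.00479), and 4 of the 14 were then called higher (*supt6h*, *nelfb*, *ccnt1* and *leo1*) and 1 lower (*rtf1*, adjusted p = 0.02). Of all genes in that fit, 8.22% were called higher and 8.17% lower. Of the genes for cap binding, the poly(A) tail and termination, 8 were tested from 13 listed symbols. Both edgeR and DESeq2 called 0 of them. Over all genes, edgeR called 3.83% lower and 3.96% higher, and DESeq2 6.26% and 6.59%. At an unadjusted p under 0.05, 0 passed in either direction, against 12.5% and 11.8% of all genes. The largest difference here was that of *pabpc4*, a poly(A)-binding protein, with a log2 fold change of 0.23 (adjusted p = 0.704). Without mutant 1 it was -0.30 (adjusted p = 0.0339).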

How the data were processed

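Poly(A)-selected RNA of 6 libraries, 3 of mutants and 3 of siblings, was sequenced by the authors. Per the labels, reads were aligned to GRCz11 with HISAT2 2.0.4 and counted with HTSeq 0.9.1. The paper's methods give the intersection-strict mode for HTSeq and name featureCounts as well. The annotation release and strand setting are not given in the sources used here. The deposited counts are whole numbers per gene without normalization, and the deposited FPKM values follow from those counts and a gene length (largest relative deviation 5.3e-09 over 18366 genes). Gene names came from the Ensembl IDs, and gene overlaps from RefSeq on GRCz12tu, for neighbours only. Of 34 listed members found in RefSeq, 11 overlap another gene, 9 of them a protein-coding gene. Besides the overlaps named with the results, these members are *ints7*, *fip1l1b*, *cpsf3*, *sympk*, *cstf2* and *xrn2*.

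Genes with low counts were removed by filterByExpr, and after TMM scaling the groups were tested by glmQLFit and glmQLFTest of edgeR 4.0.16 (R 4.3.3), with group as the sole factor. Mutants and siblings were grouped by their labels. Alternatives were DESeq2 1.42.0, other scalings and filters, limma 3.58.1 on log2(FPKM + 1) and log2(FPKM + 0.1) of genes with a mean of at least 0.5 FPKM, a replicate block, and each library left out. The scripts were tested on simulated data. Deviations of same-numbered libraries from their group means correlated at 0.342, 0.385 and 0.448 over 24277 genes. Values for different numbers were -0.234 to -0.127. Centring on group means pulls these below 0 when same-numbered values are positive, so they are not separate support. The main fit leaves the number out, so its p-values ignore this shared deviation, while the replicate block takes it in. What a number marks is not given in the labels.

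The members and lists were chosen with earlier results of these data known. Values in every library are given for *prpf31*, called members, the highest and lowest log2 fold change of each class and both Fip1 genes. *ints13* and *cstf3* were added to these after their values were seen, as were *casp8ap2*, *npat*, *rtf1*, *nelfb*, *ccnt1*, *leo1* and the single cell markers. From the further lists, called genes are named (at most 4), or else the gene with the largest change. No sequence is shown.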

Additional observations from a re-analysis of the deposited data

How the results depend on the processing

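The number of Integrator subunits called lower is given with the percent of all genes called lower in that setting. It was 4 with DESeq2 (6.26%), RLE scaling (3.65%), no filter (2.77%) or at least 10 counts in every library (4.01%). With the replicate block it was 5 (6.61%). It was 1 with library sizes alone (2.14%), 1 with limma on log2(FPKM + 1) (3.46%) and 1 with limma on log2(FPKM + 0.1) (2.96%). With limma on log2(FPKM + 1) without a filter it was 0 (1.08%). Leaving out each library gave 0 to 6. It was 0 without sibling 1, 2 or 3, where 110 to 187 genes in all were called lower (0.444% to 0.754%), against 929 with all libraries (3.83%). It was 0 without mutant 3 (0.827%), 2 without mutant 2 (1.61%) and 6 without mutant 1 (8.17%). Subunits called higher were 0 to 1, other factors called higher 0 to 3 and lower 0 to 1 over the fits that left out a library. Those calls were made only without mutant 1, where 8.22% of all genes were called higher and 8.17% lower. Over all these settings the Integrator median stayed below 0. With library sizes alone the median of all genes was -0.11 and that of the subunits -0.51.

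The log2 fold change of *prpf31* was -0.74 with library sizes alone, -0.73 with limma on log2(FPKM + 1), with or without a filter, and -0.76 with limma on log2(FPKM + 0.1), with adjusted p of 0.0617, 0.0502, 0.0825 without the filter and 0.0557. Leaving out each library gave -0.70 to -0.56. *eri1* had a limma adjusted p of 0.079 on log2(FPKM + 1), 0.12 on the same without a filter and 0.0831 on log2(FPKM + 0.1).

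Log2 fold changes near 0 turned sign, for causes not tested. With library sizes alone they were -0.0269 for *ints12*, -0.00751 for *sympk* and -0.0826 for *clp1*. With limma on log2(FPKM + 1), with or without a filter, they were -0.0483 for *ints12*, -0.00621 for *fip1l1b*, -0.0483 for *sympk*, -0.0808 for *clp1* and -0.0233 for *pabpc4*. With limma on log2(FPKM + 0.1) they were -0.052 for *ints12*, -0.0428 for *fip1l1a*, -0.00697 for *fip1l1b*, -0.0533 for *sympk*, -0.107 for *clp1* and -0.0242 for *pabpc4*. Leaving out each library in turn gave -0.13 to 0.0806 for *wdr33*, -0.25 to 0.44 for *fip1l1a*, -0.00989 to 0.23 for *sympk*, -0.13 to 0.0245 for *cstf1*, -0.0858 to 0.0465 for *nudt21*, -0.0465 to 0.113 for *clp1* and -0.30 to 0.44 for *pabpc4*. Of 582 combinations of 39 single genes with a setting, 505 kept their direction and side of the threshold, which includes genes that stayed uncalled. In 41 a call was lost, in 9 a call was gained and in 27 the sign turned. Among the called subunits, *ints2* and *ints10* were not called in 4 of the 6 fits that left out a library, and *ints8* and *ints11* in 5. The replicate block changed no call among the members and further lists other than those of *ints6* and *casp8ap2*.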
